A study of Rattus norvegicus with 18 samples.

Results

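The enzymes that make and use glutathione, break down peroxide and superoxide, and keep protein thiols reduced were followed through the response of 2 rat thyroid cell lines to thyroid-stimulating hormone (TSH). Genes were taken by symbol from the platform annotation, from probe sets with 1 symbol. The symbols covered the glutathione S-transferases, glutathione peroxidases and glutathione synthesis enzymes, the peroxiredoxins and thioredoxin system, the superoxide dismutases and catalase, and the quinone and haem enzymes. They also covered 2 selenoproteins outside those families, and the oxidant producers Nox4 and Xdh. This gave 45 of the 4736 measured genes, carried by 82 of 8740 probe sets. For a gene with several probe sets, the brightest on average over the 18 arrays stood for it, and no measured difference entered that choice of probe set. The list of genes itself was chosen with earlier results of these data known. The pattern also covered the Duox oxidases, and 0 of the 45 genes was a Duox.

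FRT/TSHR is a de-differentiated rat thyroid line that carries the TSH receptor, and FRTL5 is a differentiated rat thyrocyte line. FRT/TSHR cells grew in Coon's modification of Ham's F12 medium and were stimulated with bovine TSH at 1 U/L for 30 min or 17 h, or left as basal controls. FRTL5 cells spent 5 days in 5H medium lacking TSH and received 0.1 U/L for the same times, or none. All 6 groups went through 12 h without serum before stimulation, and each was measured on 3 arrays of separate biological replicates. How the receptor was put into the FRT cells, and whether that line is 1 clone, is not given in the sources used here. Line, medium and TSH dose differed together, so they cannot be told apart. Within a line the same basal arrays served for 30 min and 17 h, so hormone and time in culture cannot be told apart.

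Glutathione is a thiol tripeptide that the cell makes in a pair of steps, of which glutamate-cysteine ligase (Gclc with its modifier Gclm) limits the rate. Peroxidases spend it on hydrogen peroxide and lipid peroxides, transferases couple it to reactive compounds, and glutathione reductase (Gsr) restores it with NADPH. Thyrocytes make hydrogen peroxide as a substrate of thyroid hormone synthesis, so these enzymes work there beside a peroxide source. Many of their genes are known targets of the transcription factor NRF2, which binds the antioxidant response element.

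The values were RMA log2 expression values per probe set, so 1 unit is a doubling. Array medians lay between 5.47 and 5.59, and the number of arrays limits the precision. On the 3 FRTL5 arrays numbered 1 the 3' probe set of beta-actin exceeded its 5' probe set by 1.13 to 1.22, against at most 0.28 on the other 15 arrays, and the counts of genes that passed, with the named calls that change, are also given without those arrays. The thyroid labels were checked at basal. Thyroglobulin (Tg) differed by -7.04 ± 0.37 (SE) between FRT/TSHR and FRTL5 cells (limma adjusted p = 4.67e-10), and Foxe1, Pax8 and the iodide carrier Slc5a5 were also lower in FRT/TSHR. The Tshr probe set with the highest mean differed by 0.04 ± 0.15 (adjusted p = 0.912), while the other Tshr probe sets were lower in FRT/TSHR by values of -3.96, -2.15 and -0.81. Of 13 markers of C cells, fibroblasts, endothelium and leukocytes, Ret and Pdgfra were lower in FRT/TSHR, and 0 of the 13 passed as higher. The summed linear level of 6 thyrocyte markers was 685 to 789 in FRT/TSHR at basal, against 2596 to 5188 in FRTL5, and that of 3 leukocyte markers was 184 to 199 in FRT/TSHR, against 167 to 181 in FRTL5, and their part in the line differences was not tested. In bulk RNA, fewer cells of a kind and less RNA per cell cannot be told apart.

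At 17 h of TSH, 5 of the 45 redox genes differed from basal in FRTL5 cells. The peroxidase gene Gpx2 and the glutathione synthesis gene Gclm rose, and Gsta4, Selenow and Xdh fell. The share was 11.1% of the genes, beside 3.56% of all probe sets tested and 4.12% of all 4736 genes with 1 probe set each. Among probe sets of the whole array 1.64% passed as higher and 1.92% as lower. The median difference was 0.09 over the 45 genes and 0.01 over all probe sets. A value above 0 was found in 28 of the 45 genes, beside 4651 of the 8740 probe sets. Among the 45, the arrays of 7 genes lay wholly above basal and those of 4 wholly below, beside 7.60% and 7.78% of all probe sets. The calls are from limma at an adjusted p under 0.05 over 8740 probe sets. At an unadjusted p under 0.05 by limma there were 10 of the 45, beside 1113 of the 8740 probe sets and 661 of the 4736 genes. With the replicate number as a block within each line, 8 genes passed, the same 5 and Gstt2, Sod3 and Txnip. Without the FRTL5 arrays numbered 1, 6 passed, of which 4 were among the 5. With only the arrays compared in the fit 2 passed, Gpx2 and Xdh. Of 3 C cell markers 1 passed as lower at 17 h in FRTL5, Ret at -0.36, and their summed linear level was 83.8 to 91.6 at 17 h, against 100.7 to 111.9 at basal; its part in the results was not tested.

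Gpx2 encodes the glutathione peroxidase best known from the gut lining, which reduces hydrogen peroxide with glutathione. Its FRTL5 values were 8.67, 8.72 and 8.80 at 17 h, against 7.81, 7.68 and 7.24 at basal. The arrays did not overlap, and the 30 min values of 8.05, 7.72 and 7.63 lay below every 17 h value. The rise at 17 h was 1.15 ± 0.18 (SE), which is 2.22-fold, with a 95% interval of 0.76 to 1.54 (adjusted p = 0.00232). In FRT/TSHR cells Gpx2 stood at 9.99, 9.94 and 10.47 at 17 h, against 10.16, 10.35 and 10.49 at basal, and these arrays overlapped. The FRT/TSHR difference was -0.20, with an interval of -0.59 to 0.19 that lies below the whole FRTL5 interval.

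Gclm encodes the modifier subunit of glutamate-cysteine ligase. Its FRTL5 values were 7.59, 7.76 and 7.78 at 17 h, against 7.05, 7.10 and 7.16 at basal. Every 17 h array lay above every basal array and above the 30 min arrays, at 7.10, 6.98 and 7.09. The rise was 0.61 ± 0.12, which is 1.53-fold (adjusted p = 0.0095, and 0.0561 with only the arrays compared in the fit, which does not pass). The other 2 Gclm probe sets did not pass against basal, and 1 of them passed against 30 min, at 0.71. In FRT/TSHR the values were 8.19, 8.31 and 8.14 at 17 h, against 8.40, 8.26 and 8.37 at basal, and they overlapped. The partner subunit gene Gclc differed by 0.17 in FRTL5 (adjusted p = 0.783), and Gss, which adds the last residue of glutathione, by -0.02 (adjusted p = 0.975).

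Selenow encodes a small selenoprotein. Its FRTL5 values were 5.47, 6.52 and 6.19 at 17 h, against 6.92, 7.83 and 7.72 at basal. The groups did not overlap, although the array numbered 1 was the lowest of its group at both times. The fall was -1.43 ± 0.29, or 2.70-fold (adjusted p = 0.0126, and 0.116 with only the arrays compared), and within numbers it was -1.45, -1.31 and -1.53. The call was lost without FRTL5 basal replicate 2 (adjusted p = 0.0620) or 17 h replicate 1 (adjusted p = 0.0504). In FRT/TSHR cells Selenow stood at 5.81, 6.14 and 6.18 at 17 h, against 5.61, 6.41 and 6.07 at basal. Those arrays overlapped, and the FRTL5 values at 17 h overlapped them.

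Xdh encodes xanthine oxidoreductase, a purine-degrading enzyme that can release superoxide and peroxide. Its FRTL5 values were 7.51, 7.15 and 7.37 at 17 h, against 8.89, 8.55 and 8.60 at basal, with no overlap. The fall was -1.34 ± 0.26, or 2.52-fold (adjusted p = 0.00967), and it was lost without FRTL5 17 h replicate 2 (adjusted p = 0.0504). In FRT/TSHR the values were 5.60, 6.79 and 6.58 at 17 h, against 6.88, 6.67 and 6.61 at basal, and the first 17 h array lay apart from the others. That difference was -0.40 with an interval of -0.96 to 0.16. Nox4, an oxidase that makes hydrogen peroxide, differed by 0.09 in FRTL5 at 17 h (adjusted p = 0.845).

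Gsta4 encodes the alpha-class transferase that handles 4-hydroxynonenal, a product of lipid peroxidation. In FRTL5 cells it stood at 7.35, 7.92 and 7.74 at 17 h, against 8.31, 8.52 and 8.43 at basal. The arrays did not overlap, and the fall was -0.75 ± 0.15, or 1.69-fold (adjusted p = 0.0116, and 0.101 with only the arrays compared). The other Gsta4 probe set fell by 0.98 (adjusted p = 0.00218). In FRT/TSHR cells the values were 5.09, 5.67 and 5.34 at 17 h, against 5.37, 5.62 and 5.41 at basal. Without the FRTL5 arrays numbered 1 the FRTL5 difference was -0.65 (adjusted p = 0.0580), which no longer passed.

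Sod3 encodes the secreted superoxide dismutase. Its FRTL5 values were 9.64, 10.39 and 10.27 at 17 h, against 9.57, 9.60 and 9.22 at basal. Every 17 h array was above every basal array, but the first by little, and the difference of 0.63 ± 0.19 did not pass (adjusted p = 0.0836). In FRT/TSHR cells Sod3 had 5.67, 5.47 and 5.38 at 17 h, against 5.35, 5.08 and 5.56 at basal, which overlapped. The FRTL5 difference passed with the replicate block (0.63, adjusted p = 0.0319) and without the FRTL5 arrays numbered 1 (0.92, adjusted p = 0.0212). Txnip, which encodes an inhibitor of thioredoxin, had a difference of -0.70 ± 0.48 and did not pass (adjusted p = 0.67). Its FRTL5 values were 4.94, 6.29 and 6.27 at 17 h, against 5.59, 6.78 and 7.25 at basal, so the arrays numbered 1 were low at both times. With the block its adjusted p was 0.00468, and without those arrays the difference was -0.73 (adjusted p = 0.0171). Gstt2, a theta-class transferase, had a difference of -0.70 ± 0.59 (adjusted p = 0.75, and 0.00729 with the block). Gstp1, the pi-class transferase, had 8.30, 9.20 and 8.97 at 17 h, against 8.93, 9.37 and 9.37 at basal, which overlapped (-0.40 ± 0.23, adjusted p = 0.542). In FRT/TSHR it had 12.09, 12.38 and 11.67 at 17 h, against 12.29, 12.14 and 12.43 at basal, and these overlapped too.

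**Figure D1:**
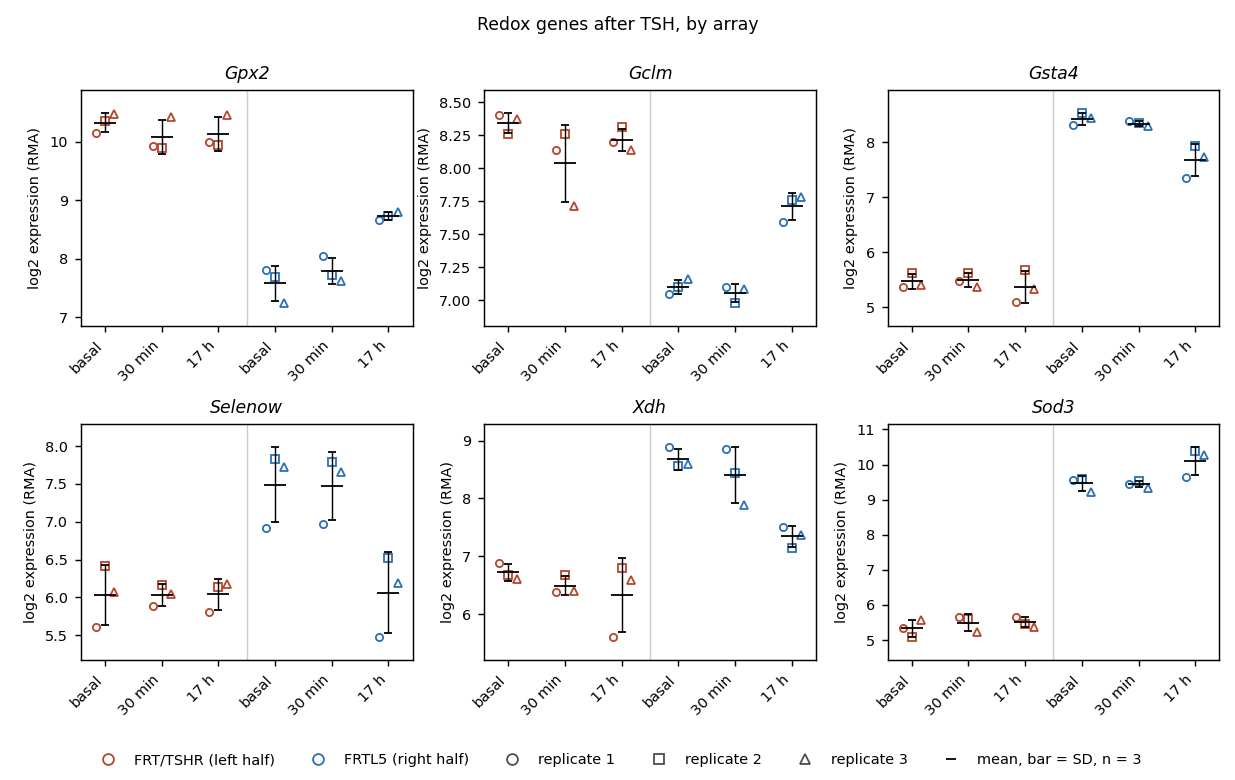
RMA log2 expression of Gpx2, Gclm, Gsta4, Selenow, Xdh and Sod3 in each of 18 arrays. Points are arrays, horizontal bars are group means with the SD of 3 arrays, and each panel's axis runs from basal through 30 min to 17 h. The 17 h arrays of FRTL5 stand apart from their basal arrays for Gpx2, Gclm, Gsta4, Selenow and Xdh, while the FRT/TSHR groups at 17 h and basal overlap.

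By role, 1 gene passed among the 4 of glutathione synthesis and recycling, Gclm. Of the 7 glutathione peroxidases Gpx2 alone passed at 17 h in FRTL5, and all 7 had values above 0 with a median of 0.24. Among them Gpx5 and Gpx6 had low mean levels, at percentiles 11.6 and 20.4 of all probe sets. Gpx1, the general cytosolic peroxidase, had a value of 0.41 (adjusted p = 0.548), and -0.12, 0.31 and 1.04 within numbers. Of the 12 transferases Gsta4 alone passed, and their median was -0.05. None of the 4 peroxiredoxins, which reduce peroxide through a reactive cysteine, passed: mitochondrial Prdx3 had 0.54 (adjusted p = 0.189) and Prdx1 had 0.36 (adjusted p = 0.357). Within numbers Prdx3 had 0.09, 0.29 and 1.24, and Prdx1 had 0.48, 0.21 and 0.40. The 4 genes of the superoxide dismutases and catalase all had values above 0, with a median of 0.28, and 0 passed. Number 3 carried the value of Cat, at -0.54, -0.17 and 0.90 within numbers, and of Sod2, at -0.05, 0.01 and 0.63. Sod1 and Sod3 were higher in all 3 pairs. Of the 2 oxidant producers Xdh passed, and of the 2 selenoproteins outside the other role groups Selenow passed. Of the 6 genes grouped by symbol with the thioredoxin system, Txnl4b among them, 0 passed. The same held for the 4 grouped by symbol as quinone and haem enzymes, which include the entry Hmox2-ps1. Over all 45 genes, the 40 that did not pass ranged from -0.70 for Gstt2 to 0.63 for Sod3. Within replicate numbers, 12 of the 45 were higher at 17 h in all 3 pairs and 9 were higher in none. This count was not made over all probe sets, so it has no background beside it. The pairing of FRTL5 numbers 2 and 3 is also not settled.

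At 30 min none of the 45 redox genes passed in FRTL5 cells, where 0.240% of all probe sets passed. Their differences from basal ran from -0.38 for Gsta3 to 0.40 for Txnip, and by limma 0 of the 45 had an unadjusted p under 0.05. Over all 8740 probe sets there were 241. At 17 h against 30 min, 5 genes passed, where 4.21% of all probe sets passed, 1.86% as higher and 2.35% as lower. Of all 4736 genes with 1 probe set each, 4.77% passed there. The 5 redox genes were those that passed against basal: Gpx2 (0.93) and Gclm (0.66) were higher, and Gsta4 (-0.67), Selenow (-1.41) and Xdh (-1.05) were lower. Both of these comparisons use the same 17 h arrays. Against 30 min the calls of Gsta4 and Xdh were each lost in 5 of the 6 fits that left out 1 array. That of Selenow was lost in 3 of the 6. With the replicate block 10 genes passed, and Prdx1, Sod1 and Sod3 were higher and Gstt2 and Txnip lower in addition. Leaving out FRTL5 replicate 2 at 30 min left 2 genes, Gpx2 and Gclm, and 3 of the 5 passed without replicate 3 at 30 min or at 17 h. Without 17 h replicate 1, 3 genes passed, Gpx2, Gclm and Sod3. Without all FRTL5 arrays numbered 1, 5 passed, of which 3 were among the 5.

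In FRT/TSHR cells 0 of the 45 redox genes passed at 30 min, where 0.00% of all probe sets passed, and 0 at 17 h, where the share was again 0.00%. By limma at an unadjusted p under 0.05 there was 1 of the 45 at 30 min, Gclm at -0.31, and 0 at 17 h. Over all 8740 probe sets there were 208 at 30 min and 108 at 17 h. At 17 h the 45 differences ran from -0.40 for Xdh to 0.25 for Hmox1, and at 30 min Cat had the lowest value, -0.82. Array number 3 carried the Cat value, since the differences within numbers were -0.13, -0.12 and -2.21.

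The responses of the lines at 17 h were compared directly, as the FRT/TSHR effect minus the FRTL5 effect. Gpx2 was the one redox gene that passed, at -1.35 ± 0.26 (adjusted p = 0.0233), where 0.789% of all probe sets passed. Its call was lost in 7 of the 12 fits that each left out 1 array, namely FRT/TSHR basal replicate 2 or 3, FRT/TSHR 17 h replicate 1 or 2, FRTL5 basal replicate 3, and FRTL5 17 h replicate 2 or 3. The highest adjusted p among them, 0.0740, came without FRT/TSHR 17 h replicate 1. Gclm differed by -0.74 ± 0.17 (adjusted p = 0.0555), Selenow by 1.44 ± 0.41 (adjusted p = 0.148), Gsta4 by 0.65 ± 0.21 (adjusted p = 0.25) and Xdh by 0.94 ± 0.37 (adjusted p = 0.42). With the replicate block within lines 4 genes passed, adding Gclm (adjusted p = 0.0183), Gsta4 (0.0390) and Selenow (0.00055). With only the arrays compared in the fit 0 passed, Gpx2 included (adjusted p = 0.0516). Without the FRTL5 arrays numbered 1, 2 passed, and Selenow was the added one (adjusted p = 0.0307). At 30 min 0 genes passed this comparison, where 0.0343% of all probe sets did.

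**Figure D2:**
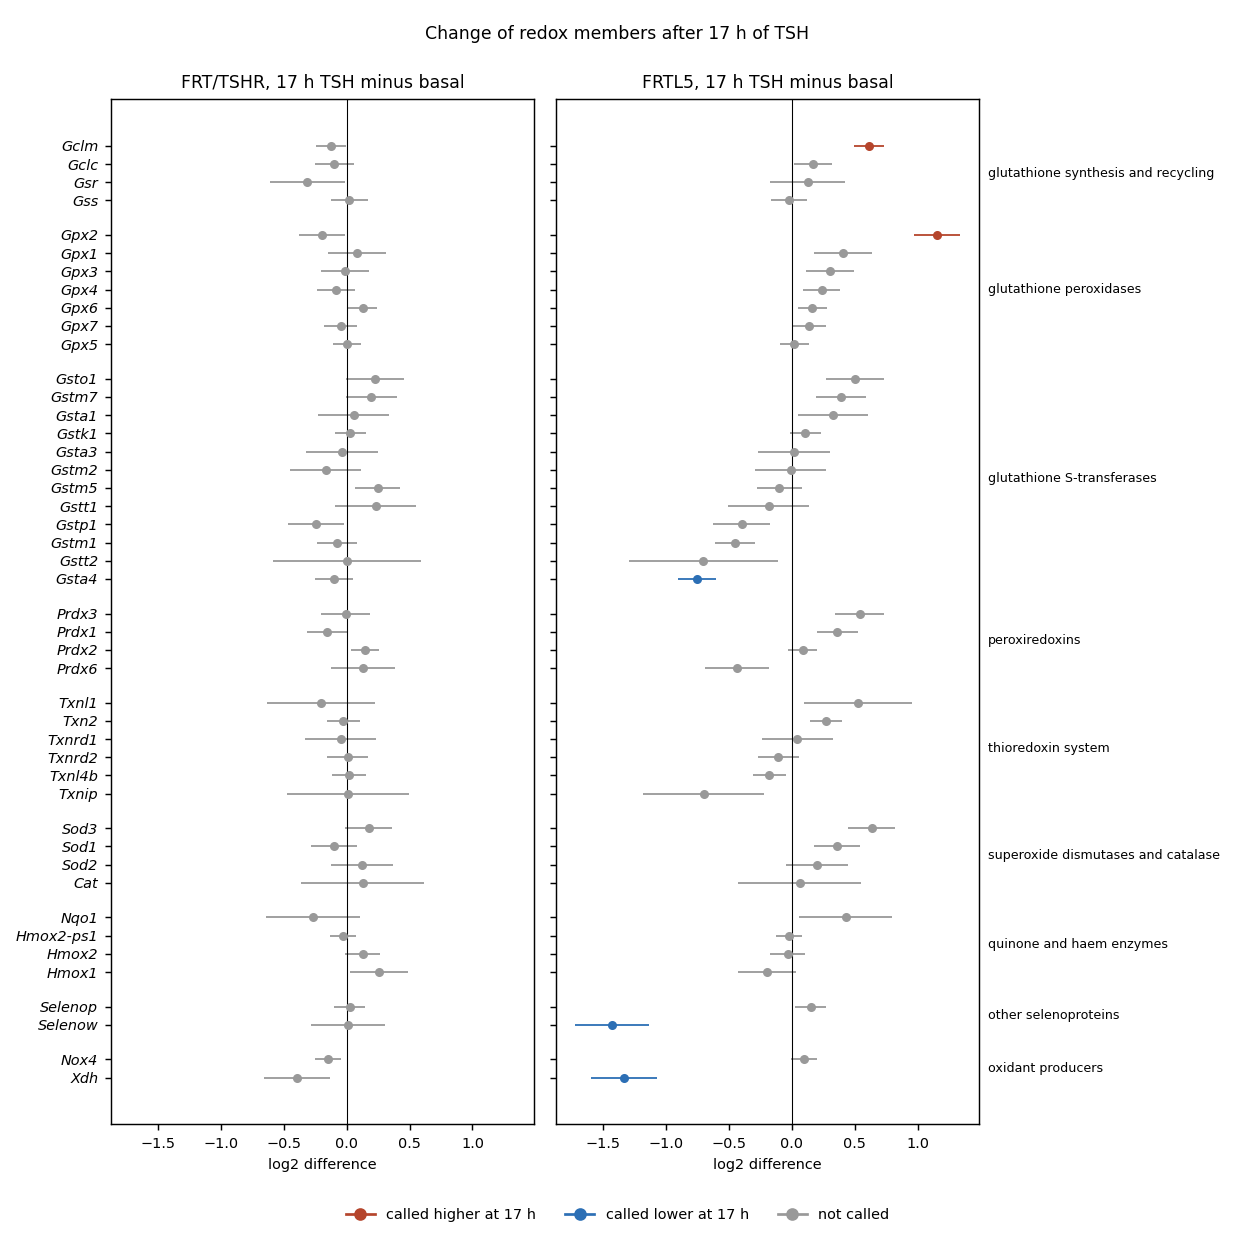
TSH effect at 17 h on each of the 45 redox genes, in log2 units against basal, in FRT/TSHR cells (left) and FRTL5 cells (right), with bars of 1 SE and genes grouped by role. Colour marks genes that passed. The FRTL5 values reach 1.15 for Gpx2 and -1.43 for Selenow, while the FRT/TSHR values stay between -0.40 and 0.25.

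At basal, 23 of the 45 redox genes differed between the lines. Of these, 16 were higher and 7 lower in FRT/TSHR cells than in FRTL5 cells. Nqo1, the transferases Gstm5, Gstp1, Gsta3 and Gstm2, the peroxidases Gpx1 and Gpx2, Hmox1, Gsr and Gclm were the 10 with the largest positive differences, and Sod3 and Gsta4 had the largest negative ones. The share was 51.1%, beside 25.5% of all probe sets tested, of which 13.3% were higher and 12.2% lower. Over all 4736 genes with 1 probe set each, chosen in the same way, 28.5% passed. The median difference was 0.18 over the 45 genes and -0.04 over all probe sets. The median of absolute differences was 0.72, against 0.19 over all probe sets. Of the 45, 18 genes differed by more than 1 log2 unit, beside 1024 of the 8740 probe sets and 601 of the 4736 genes. Among the 45, the FRT/TSHR arrays of 19 lay wholly above and those of 7 wholly below the FRTL5 arrays, beside 17.5% and 19.5% of all probe sets. Without the FRTL5 arrays numbered 1, 24 genes passed, the same 23 among them. This comparison and the 17 h response of FRTL5 share the FRTL5 basal arrays, and the values of both are given side by side for the 5 responding genes below.

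All 4 genes of glutathione synthesis and recycling were higher in FRT/TSHR at basal. Gclm stood at 8.40, 8.26 and 8.37 in FRT/TSHR, against 7.05, 7.10 and 7.16 in FRTL5 (1.24 ± 0.12, 2.36-fold, adjusted p = 7.53e-07). Gsr, the reductase that restores glutathione, had 8.99, 8.80 and 8.97 in FRT/TSHR, against 6.50, 7.38 and 7.43 in FRTL5. The FRTL5 array numbered 1 lay low, and the difference was 1.82 ± 0.30 or 3.52-fold (adjusted p = 0.000196), and 1.51 without the FRTL5 arrays numbered 1. Gss differed by 0.85 and Gclc by 0.74, and both passed. In each of these 4 genes every FRT/TSHR array lay above every FRTL5 array.

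Of the 7 peroxidases, Gpx2 and Gpx1 were higher in FRT/TSHR. Gpx2 had 10.16, 10.35 and 10.49 in FRT/TSHR, against 7.81, 7.68 and 7.24 in FRTL5, a difference of 2.75 ± 0.18 or 6.74-fold (adjusted p = 9.93e-09). Gpx1 had 8.80, 8.80 and 8.76 in FRT/TSHR, against 6.69, 6.54 and 5.62 in FRTL5. Its groups did not overlap, and the difference was 2.50 ± 0.23 or 5.68-fold (adjusted p = 4.63e-07). Another Gpx1 probe set differed by 1.67 and passed, and the last by -0.14 and did not (adjusted p = 0.63). Gpx3, Gpx4, Gpx5, Gpx6 and Gpx7 lay between -0.18 and 0.34, and none of them passed.

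Of the 12 transferases, 6 were higher and 2 lower in FRT/TSHR. Gstp1 had 12.29, 12.14 and 12.43 in FRT/TSHR, against 8.93, 9.37 and 9.37 in FRTL5 (3.07 ± 0.23, 8.38-fold, adjusted p = 3.17e-08). Gstm5 had 8.61, 8.32 and 8.30 in FRT/TSHR, against 4.82, 4.54 and 4.84 in FRTL5 (3.68 ± 0.18, 12.8-fold, adjusted p = 1.94e-10). Both sets of arrays were far apart, as were those of the next 2 genes. Gsta3 had 8.23, 9.08 and 8.78 in FRT/TSHR, against 5.71, 5.37 and 5.80 in FRTL5 (3.07 ± 0.29, adjusted p = 5.52e-07). Gstm2 had 8.61, 8.89 and 9.28 in FRT/TSHR, against 6.61, 6.81 and 6.93 in FRTL5 (2.14 ± 0.28, adjusted p = 2.26e-05). Gsto1, of the omega class, differed by 1.00 and Gsta1, of the alpha class, by 0.96. Gsta1 was lost in 3 of the 6 fits that each left out 1 array, with an adjusted p of 0.102 without FRT/TSHR basal replicate 3. Of its other 2 probe sets, 1 passed at 0.51 and 1 did not, at 0.29. The Gsta and Gstm genes are near-identical families, so a probe set named for 1 of them may also bind transcripts of others.

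Gsta4 went the other way. It had 5.37, 5.62 and 5.41 in FRT/TSHR, against 8.31, 8.52 and 8.43 in FRTL5 (-2.95 ± 0.15, adjusted p = 3.93e-10), and its other probe set gave -4.28. Gstm1 had 6.73, 6.44 and 6.67 in FRT/TSHR, against 7.45, 7.01 and 7.54 in FRTL5 (-0.72 ± 0.16, adjusted p = 0.00284). The other 2 Gstm1 probe sets, at -0.48 and -0.52, did not pass. Gstk1, Gstm7, Gstt1 and Gstt2 did not pass, with values between -0.71 and 0.21.

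The quinone reductase gene Nqo1 and the inducible haem oxygenase gene Hmox1 were both higher in FRT/TSHR. Nqo1 had 9.96, 9.52 and 10.13 in FRT/TSHR, against 5.80, 5.58 and 5.25 in FRTL5, a difference of 4.33 ± 0.37 or 20.1-fold (adjusted p = 2e-07). Hmox1 had 9.03, 9.61 and 9.78 in FRT/TSHR, against 7.54, 7.10 and 7.07 in FRTL5 (2.23 ± 0.23, 4.70-fold, adjusted p = 1.65e-06). Neither gene had overlapping arrays. Hmox2, the constitutive relative of Hmox1, differed by 0.08, and the gene listed as Hmox2-ps1 by 0.00, and both missed the threshold (adjusted p = 0.756 and 1.00).

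Sod3 had the largest negative difference among the 45 at basal. It stood at 5.35, 5.08 and 5.56 in FRT/TSHR, against 9.57, 9.60 and 9.22 in FRTL5 (-4.13 ± 0.19, 17.5-fold, adjusted p = 7.84e-11), and its other probe set gave -2.57. Cytosolic Sod1 was higher in FRT/TSHR, at 10.30, 10.41 and 10.68, against 9.09, 9.67 and 9.30 in FRTL5 (1.11, adjusted p = 0.000198). Its other 2 probe sets, at 0.42 and 0.12, did not pass. Mitochondrial Sod2 (-0.24, adjusted p = 0.577) and Cat (0.56, adjusted p = 0.496) did not pass.

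Among the thiol peroxidases and thioredoxin genes the calls went both ways. Prdx1 was higher in FRT/TSHR by 0.67 and Prdx6 lower, at 7.65, 7.64 and 7.54 in FRT/TSHR, against 9.01, 8.13 and 8.47 in FRTL5 (-0.92 ± 0.26, adjusted p = 0.0126). The Prdx6 call was lost without FRTL5 basal replicate 1 (adjusted p = 0.0709). Of its other 2 probe sets, 1 passed at -0.57 and 1 did not, at -0.48 (adjusted p = 0.0523). Txnip stood at 4.51, 4.37 and 4.59 in FRT/TSHR, against 5.59, 6.78 and 7.25 in FRTL5 (-2.05 ± 0.48, adjusted p = 0.00431, and -2.52 without the FRTL5 arrays numbered 1). The FRT/TSHR arrays all lay below, and the FRTL5 array numbered 1 lay nearest to them. Txnrd1, the cytosolic thioredoxin reductase, gave 0.71 on 1 probe set and did not pass (adjusted p = 0.0801), and gave 1.42 on another that did (adjusted p = 0.0171). Txnl1 gave 1.08 ± 0.43 (adjusted p = 0.0837), and 1.48 without the FRTL5 arrays numbered 1 (adjusted p = 0.00563).

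The remaining called genes were Xdh (-1.96 ± 0.26, 3.88-fold, adjusted p = 2.72e-05) and Selenow (-1.46 ± 0.29, 2.75-fold, adjusted p = 0.00121), both lower in FRT/TSHR. Selenop, which encodes the selenium carrier of plasma, gave 0.06 on its chosen probe set and -1.01 on another that passed (adjusted p = 0.0125). Over the 22 genes that did not pass, values lay between -0.71 for Gstt2 and 1.08 for Txnl1.

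**Figure D3:**
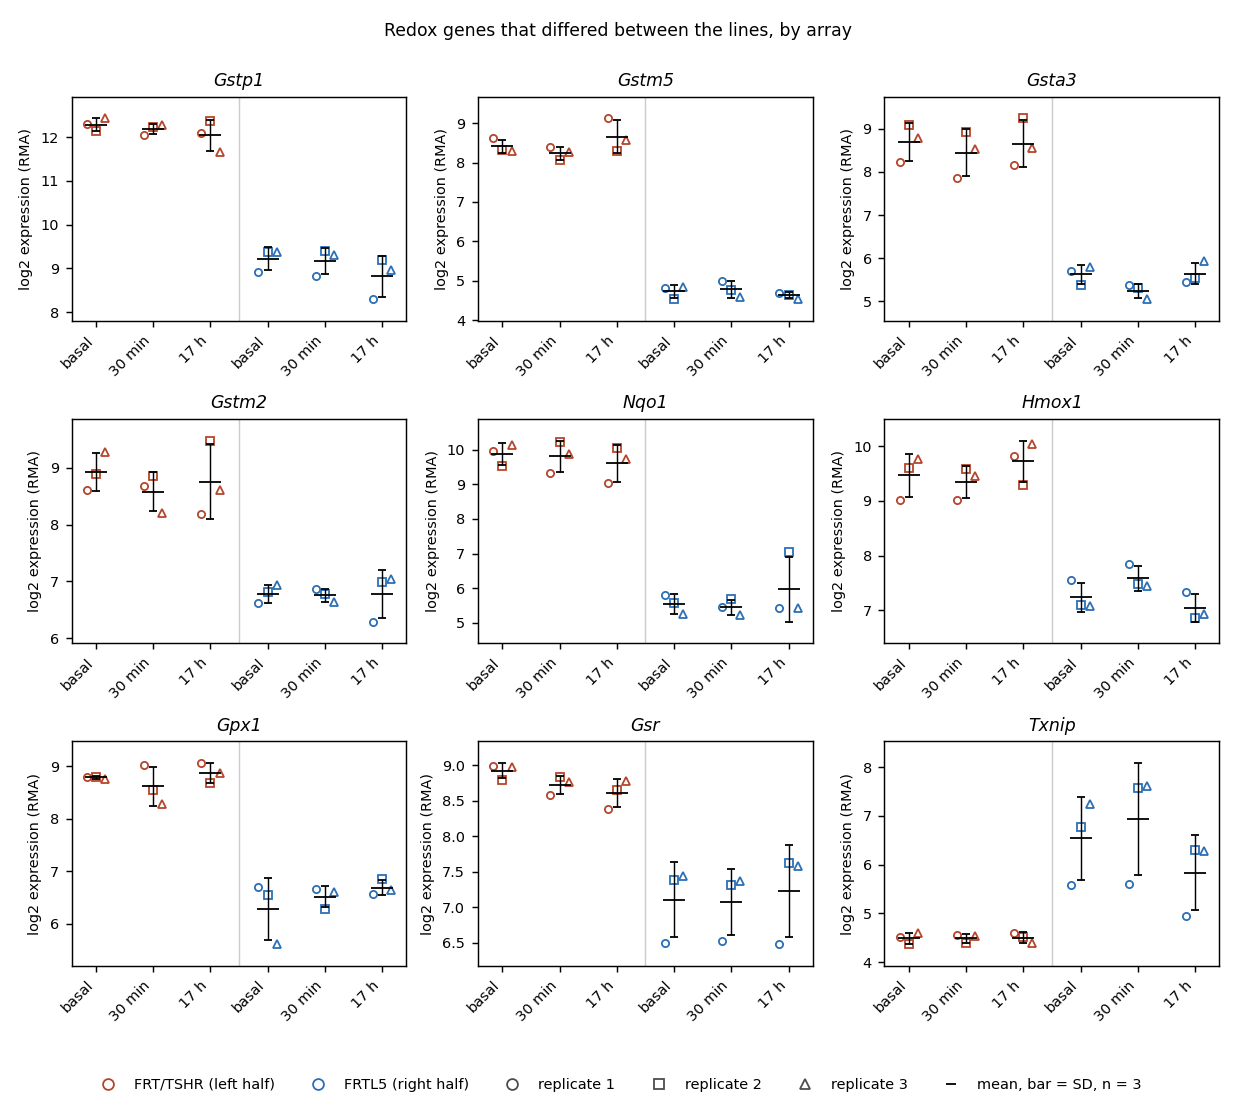
RMA log2 expression of 9 redox genes that differed between the lines at basal, in each of 18 arrays, with points for arrays and bars for group means and the SD of 3 arrays. Gstp1, Gstm5, Gsta3, Gstm2, Nqo1, Hmox1, Gpx1 and Gsr stand higher and Txnip lower in FRT/TSHR at basal, with no overlap between basal arrays, and the FRTL5 arrays numbered 1 lie low for Gsr and Txnip.

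**Figure D4:**
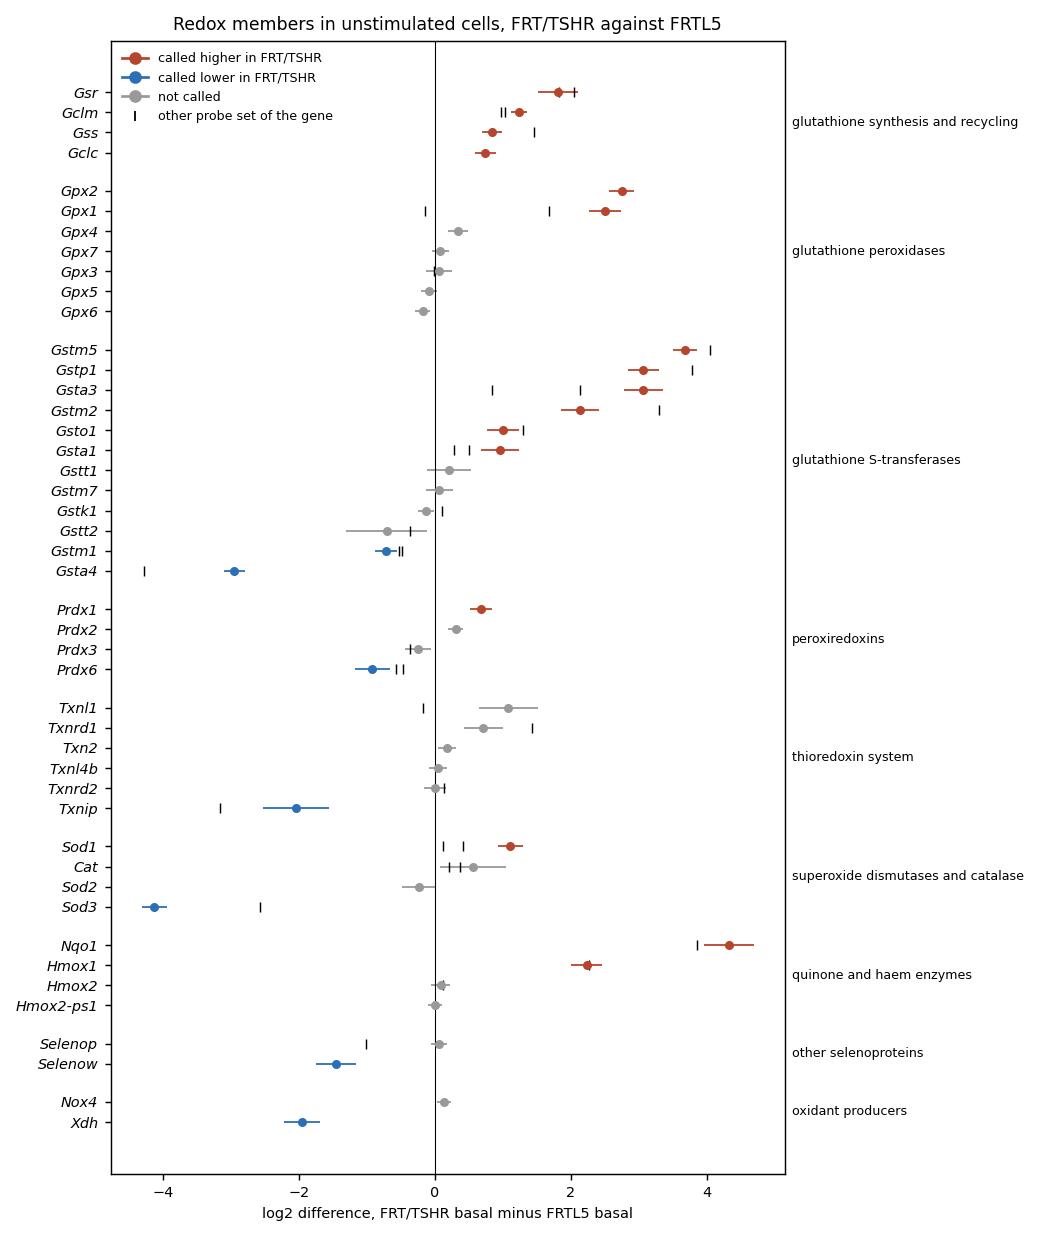
Difference between FRT/TSHR and FRTL5 at basal for each of the 45 redox genes, in log2 units with bars of 1 SE, grouped by role. Colour marks genes that passed, and ticks mark the other probe sets of a gene. The values run from -4.13 for Sod3 to 4.33 for Nqo1.

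At 17 h of TSH, 19 of the 45 genes differed between the lines, 15 higher and 4 lower in FRT/TSHR. Of all probe sets 20.4% passed, 11.5% as higher and 8.94% as lower. Of all 4736 genes with 1 probe set each, 23.1% passed. Gstm5 (4.02), Nqo1 (3.63), Gstp1 (3.22), Gsta3 (3.01) and Hmox1 (2.68) were higher in FRT/TSHR, and Sod3 (-4.59) and Gsta4 (-2.31) were lower. The calls of Prdx2, Gclc, Gsto1 and Sod1 were lost in 5, 4, 4 and 2 of 6 fits that each left out 1 array. Without the FRTL5 arrays numbered 1, 17 genes passed, of which 16 were among the 19, and Txnip was the added one at -1.79. Of 3 leukocyte markers Cd14 passed as higher in FRT/TSHR at 17 h (0.90) and Ptprc as lower (-0.33). Their summed linear level was 192 to 301 in FRT/TSHR, against 157 to 180 in FRTL5, and its part in the results was not tested. The genes that moved in FRTL5 stood as follows. Gpx2 differed between the lines by 1.40 ± 0.18 at 17 h, and by 2.75 ± 0.18 at basal. Gclm differed by 0.50 at 17 h and by 1.24 at basal, and under quantile normalization the 17 h value was 0.34 and did not pass (adjusted p = 0.0720). Selenow differed by -0.02 ± 0.29 at 17 h (adjusted p = 0.978, interval -0.64 to 0.61) and by -1.46 at basal. Xdh differed by -1.02 at 17 h and by -1.96 at basal, and without FRT/TSHR 17 h replicate 1 the 17 h value was -0.66. Gsta4 differed by -2.31 at 17 h and by -2.95 at basal. For each of the 5 genes the gap between the lines was smaller at 17 h than at basal, and the line difference in response given above is the test of that change. Gpx2 alone passed it without the block, Gclm, Gsta4 and Selenow passed too with the replicate block, and none passed with only the arrays compared.

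Promoter sequences were read for the genes the results turn on, from 250 bases before to 50 bases after the start, as given by RefSeq for the GRCr8 assembly, whose promoter table has a window for 37 of the 45 genes. The antioxidant response element was searched as TGACNNNGC on both strands, and a match on the other strand is printed as its reverse complement. A match is a description of letters and not a binding site. Gpx2 and Gclm are shown whole because they rose in FRTL5 and were higher in FRT/TSHR, and capitals mark the match. The Gpx2 window is chr6:101229984-101230283 on the minus strand, and the Gclm window is chr2:213031885-213032184 on the plus strand.
Gpx2: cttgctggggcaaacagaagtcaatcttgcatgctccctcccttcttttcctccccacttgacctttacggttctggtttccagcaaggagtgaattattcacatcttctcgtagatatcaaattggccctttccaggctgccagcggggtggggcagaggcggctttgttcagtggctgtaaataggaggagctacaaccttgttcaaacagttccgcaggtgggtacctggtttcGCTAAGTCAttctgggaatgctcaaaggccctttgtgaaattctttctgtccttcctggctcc
Gclm: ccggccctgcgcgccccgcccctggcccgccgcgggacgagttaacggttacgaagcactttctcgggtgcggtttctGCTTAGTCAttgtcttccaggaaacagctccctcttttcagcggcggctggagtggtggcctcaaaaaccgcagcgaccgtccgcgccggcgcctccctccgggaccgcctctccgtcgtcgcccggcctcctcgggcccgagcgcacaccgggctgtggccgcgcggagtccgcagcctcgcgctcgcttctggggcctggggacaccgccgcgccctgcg
In Gpx2 the match lies at position -13 from the start and in Gclm at -172. For 3 transferases that were higher in FRT/TSHR the match is shown with its flanks. These are Gstp1 at chr1:210769738-210769786 on the minus strand, Gsta3 at chr9:31154952-31155000 on the plus strand, and Gstm5, which has 2 matches, at -113 and -53, at chr2:198219636-198219684 on the plus strand and chr2:198219696-198219744 on the plus strand.
Gstp1: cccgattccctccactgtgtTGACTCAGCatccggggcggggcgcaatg
Gsta3: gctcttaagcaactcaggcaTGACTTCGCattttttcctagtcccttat
Gstm5, first match: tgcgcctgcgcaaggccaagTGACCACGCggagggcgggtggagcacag
Gstm5, second match: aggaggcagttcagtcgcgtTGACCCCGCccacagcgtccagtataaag
The Gsta4 window, at chr8:87947015-87947314 on the plus strand, is also shown, since Gsta4 was lower in FRT/TSHR and fell in FRTL5. It holds no match. Windows without a match in genes that were higher in FRT/TSHR are not shown, and a link between match and direction was not tested.
Gsta4: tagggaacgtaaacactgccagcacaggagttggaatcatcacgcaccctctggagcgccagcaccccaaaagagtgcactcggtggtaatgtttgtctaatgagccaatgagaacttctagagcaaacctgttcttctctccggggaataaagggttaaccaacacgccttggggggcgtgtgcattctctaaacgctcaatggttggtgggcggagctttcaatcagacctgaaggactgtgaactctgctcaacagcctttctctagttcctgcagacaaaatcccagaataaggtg

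The element was found in 12 of the 37 gene windows, which is 32.4%, and in 3602 of 27457 genes with a window, which is 13.1%. It was in 7 of the 14 genes with a window that were higher in FRT/TSHR at basal, namely Gclm, Gpx2, Gsta1, Gsta3, Gstm5, Gstp1 and Prdx1. Nqo1 and Hmox1, also higher there, were not among these 7. The element was in 0 of the 4 lower genes and in 5 of the 19 that did not pass. These are counts of letters in a short window over genes chosen by name, with no test. The cAMP response element TGACGTCA, which factors downstream of the TSH receptor are known to bind, was in 1 of the 37, Txnl1, and in 2% of all genes with a window.

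A broad list of genes around NRF2 and NADPH metabolism, of which 9 of 20 were measured, was read in the same comparisons. Not all of them regulate NRF2 or supply NADPH, with Tkt, Slc3a2 and Blvra among those that do not. At 17 h in FRTL5 cells Tkt (transketolase, 1.08 ± 0.14, adjusted p = 0.000495) and Me1 (malic enzyme, 1.50 ± 0.29, adjusted p = 0.00919) passed as higher, and the other 7 did not pass, beside 3.56% of all probe sets that passed. Tkt had 8.82, 8.80 and 8.77 at 17 h, against 7.90, 7.82 and 7.44 at basal, with no overlap. The gene of NRF2 itself, Nfe2l2, had 5.66, 4.99 and 4.92 at 17 h, against 5.59, 5.40 and 5.17 at basal (-0.20, adjusted p = 0.882). At basal all 9 had higher values in FRT/TSHR, 6 passed, beside 25.5% of all probe sets, and the median was 1.24. Nfe2l2 had 6.78, 6.38 and 6.73 in FRT/TSHR, against 5.59, 5.40 and 5.17 in FRTL5 (1.24 ± 0.26, adjusted p = 0.00156). Among 11 measured genes of glutathione use and turnover 0 passed at 17 h in FRTL5, while at basal 4 were higher in FRT/TSHR, with Mgst2 at 2.62 and Ggt1 at 1.58, and 2 were lower, Dpep1 at -2.07 and Mgst1 at -1.92.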

How the data were processed

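Expression was measured on 18 Affymetrix arrays, 3 per group. The deposited values are log2 expression per probe set, made by the authors with RMA per the submitters' processing notes; that they are on a log2 scale was inferred from their range, and the version and settings of RMA are not given in the sources used here. Scanner files were not analysed here, so neither background correction nor detection over background could be examined.

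Of the probe sets, 59 controls were left out and 8740 were tested without a filter on signal. The annotation gave 1 symbol to 7006, several to 308 and none to 1426. A model of 6 group means was fitted with limma 3.58.1 in R 4.3.3 (lmFit and eBayes, 12 residual and 3.597 prior degrees of freedom). Two-sided p-values were adjusted by Benjamini-Hochberg within each comparison, over all 8740, with a threshold of 0.05. The fit was tested on simulated data. Of the 45 chosen probe sets, 12 have names ending in _s_at or _f_at, which can match several similar transcripts, 28 genes had several probe sets, and levels of different probe sets are not compared.

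The text names the genes that passed at 17 h in FRTL5, up to 10 per direction between the lines at basal, and Gpx2, Gclm, Gsta4, Gstp1 and Sod3; others were named after their values were seen. The members and lists were chosen with earlier results of these data known. The replicate numbers were checked as a pairing by correlating deviations from group means within a line. The 18 pairs of arrays with the same number correlated at 0.148 to 0.798 (median 0.449). The 36 pairs with different numbers correlated at -0.639 to 0.628 (median -0.293). In FRTL5, 30 min replicate 2 correlated at 0.628 with 17 h replicate 3, against 0.233 with 17 h replicate 2. Likewise 30 min replicate 3 correlated at 0.611 with 17 h replicate 2, against 0.148 with 17 h replicate 3. The pairing of FRTL5 numbers 2 and 3, which the block uses, is therefore not settled. Across lines the same numbers correlated at -0.217 to 0.420, and different numbers at -0.367 to 0.501. Numbers shared across lines were used as a block only in an alternative fit of the comparisons between lines at basal and at 17 h. Promoter sequences are from RefSeq, assembly GRCr8.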

Additional observations from a re-analysis of the deposited data

Results flagged for a closer look

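The 17 h TSH effect on Gpx2 differed between the lines, at -1.35 for the FRT/TSHR effect minus the FRTL5 effect (limma, adjusted p = 0.0233), with values of -0.20 in FRT/TSHR and 1.15 in FRTL5. This difference was tested directly in the fit across all probe sets. The call was lost in 7 of the 12 fits that each left out 1 array, and with only the arrays compared. Line, medium and TSH dose differed together and cannot be told apart.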

How the results depend on the processing

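The counts of redox genes that passed moved by more than 1.5 times under these settings. With the replicate block within lines, 8 passed in FRTL5 at 17 h against basal, 10 at 17 h against 30 min, and 4 in the line difference at 17 h. With only the arrays compared in the fit these counts were 2, 2 and 0. Without the FRTL5 arrays numbered 1, 2 passed in the line difference at 17 h. Leaving out 1 array at a time gave 4 to 5 genes for FRTL5 at 17 h against basal, 2 to 4 against 30 min, 0 to 1 for the line difference at 17 h, 22 to 24 between lines at basal and 16 to 18 at 17 h, and 0 to 0 in the other comparisons. With only the arrays compared, Gclm (adjusted p = 0.0561), Gsta4 (0.101) and Selenow (0.116) no longer passed in FRTL5 at 17 h. No result turned its direction in the settings run, and the block changed no other count by over 1.5 times. For the comparisons between lines that block used replicate numbers shared across lines. The cause of these changes was not tested. The number of arrays limits the precision, and signal over background was not measured.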
